A study of Mus musculus with 8 samples.

Results

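The genes described here are 9 members of the fibroblast growth factor (FGF) signalling system of the mouse: 4 ligand genes (Fgf4, Fgf8, Fgf15 and Fgf17) and 5 receptor genes (Fgfr1, Fgfr2, Fgfr3, Fgfr4 and Fgfrl1). They were found on the array by matching the RefSeq accession of each probe to a gene symbol, and they are 9 of 20972 genes so named. The 9 genes had 16 probes on 25 spots. Of these probes 14 passed the filter on dim probes, and the probe that stood for each gene was well above background on all 8 arrays for 9 of 9 genes.

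The cells were mouse embryonic stem cells, cultured pluripotent cells of the early embryo, and their RNA was hybridised to 8 single-colour Agilent arrays, 2 per group. All 4 groups grew in stem cell medium with the self-renewal cytokine LIF and with 250 nM PD173074, an inhibitor of the FGF receptor kinases. Untreated cells, labelled 0 h, received nothing more. No untreated group was labelled 8 h or 10 h. Where untreated cells are the reference, an effect of 4OHT and one of time in culture therefore cannot be told apart. The 4OHT 8h and 4OHT 10h cells received 250 nM 4OHT (4-hydroxytamoxifen) for 8 h or 10 h. The fourth group, called the PD0325901 group here, had 8 h of 4OHT followed by 2 h of the MEK inhibitor PD0325901 at 1 µM. Cells usually receive 4OHT to activate an engineered protein that carries an oestrogen receptor domain. No such protein, cell line or clone is named in the labels, nor whether 4OHT was still present during the 2 h with PD0325901. Erk, the target of MEK, is in the title of the series. The comparisons asked how transcripts responded to 4OHT and how they changed when MEK was inhibited after 8 h of it. No group had PD0325901 without 4OHT. A reversal of the response to 4OHT and an effect of the inhibitor apart from 4OHT therefore cannot be told apart. The submitters' design text speaks of 2 biological replicates. Nothing states how cultures were kept apart, so the p-values reflect only how far these samples vary, a variation that may be technical.

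FGF ligands are secreted proteins that bind receptor tyrosine kinases together with heparan sulphate or Klotho coreceptors. An activated receptor recruits the adaptor FRS2 and the GRB2 and SOS proteins, which switch on RAS and then the kinases RAF, MEK and ERK. ERK in turn induces inhibitors of its own pathway, such as the Sprouty proteins and the phosphatase DUSP6. In mouse embryonic stem cells FGF4 is the best known ligand made by the cells themselves, and its signal through FGFR1 and ERK prepares them to leave the naive state. In the blastocyst the same ligand directs cells of the inner cell mass towards primitive endoderm.

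Among the 9 genes, Fgf4 and Fgfr4 changed most and in opposite directions. Fgf4 was 3.11-fold lower at 4OHT 8h than in untreated cells and returned close to the untreated level with PD0325901. Fgfr4 was 17.8-fold higher at 4OHT 8h and 27.6-fold higher at 4OHT 10h than in untreated cells, and stayed 12-fold higher in the PD0325901 group than in untreated cells. Fgfr1 and Fgfrl1 fell at both times. Fgf15 and Fgf17 were lowest in the PD0325901 group, and no comparison called Fgf8, Fgfr2 or Fgfr3.

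The stretch upstream of the annotated start is shown for Fgf4 and Fgfr4 because these are the members whose group means spanned at least 1 on the log2 scale. Each line gives 250 bases that end just before the RefSeq start (GRCm38.p6, plus strand), Fgf4 at chr7:144861136-144861385 and Fgfr4 at chr13:55152568-55152817. Capitals mark matches to the GC box GGGCGG, the CCAAT box CCAAT (written ATTGG where it lies on the other strand) and the ETS core CCGGAA.
Fgf4: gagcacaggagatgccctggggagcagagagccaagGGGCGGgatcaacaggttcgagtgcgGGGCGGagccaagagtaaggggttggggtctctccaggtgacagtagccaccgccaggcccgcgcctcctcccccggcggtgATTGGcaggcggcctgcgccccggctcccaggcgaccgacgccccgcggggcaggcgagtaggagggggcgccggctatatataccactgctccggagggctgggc
Fgfr4: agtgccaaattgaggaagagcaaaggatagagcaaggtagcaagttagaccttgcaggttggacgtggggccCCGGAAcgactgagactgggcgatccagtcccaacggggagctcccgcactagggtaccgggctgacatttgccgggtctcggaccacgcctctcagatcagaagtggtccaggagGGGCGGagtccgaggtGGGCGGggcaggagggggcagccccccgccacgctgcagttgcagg
The 2 stretches hold 71.2% and 64% G and C, against a median of 52.4% over all promoters of the RefSeq table. Fgf4 has 2 GC boxes, 214 and 188 bases before the start, and 1 CCAAT box, 106 bases before it. Fgfr4 has 1 ETS core, 178 bases before the start, and 2 GC boxes, 62 and 46 bases before it. Over the same 250 bases of 32851 promoters, searched on both strands, the GC box was in 32.7%, the CCAAT box in 33.8% and the ETS core in 12%. The TATA box TATAAA (12.4% of promoters), the AP-1 site TGANTCA (6.75%) and the E box CACGTG (6.02%) had no match in either window. Only these letters were searched, so the tatatata near the end of the Fgf4 stretch was not counted. The marked matches do not overlap each other. A match is a description of the letters and not evidence of binding.

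Levels are given as log2 of the signal over the 75th percentile of the array, so 0 is the level that 75% of the spots stay under. They compare 1 probe between arrays and give no order between genes. A change is the log2 difference of 2 group means, given ± its standard error from a limma fit over all 8 arrays. That fit had no term for the replicate number. A gene is called where its adjusted p (Benjamini-Hochberg over the 22686 genes and unnamed features tested) is under 0.05. The lowest signal well above background lay between -5.63 and -4.20 on the arrays. In bulk samples such as these, fewer cells with a transcript and less of it per cell cannot be told apart.

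Between 30218 and 37789 of 59305 spots per array passed the scanner software's background test, at least 36889 on the replicate 1 arrays and at most 31433 on those of replicate 2. The 4 groups lay in separate columns of 1 slide, so column and group cannot be told apart. All 10 markers of embryonic stem cells were above background on all 8 arrays. Of the markers of other cells, 17 of 19 for primitive endoderm, 5 of 11 for fibroblasts, 8 of 9 for trophoblast and 6 of 7 for neural progenitors passed the filter. The fibroblast genes Col3a1, Postn, Dcn, Lum, Twist2 and Fap, the endoderm genes Afp and Ttr, the trophoblast gene Elf5 and the neural gene Neurog2 did not. Summed marker signals, in units of the 75th percentile, moved with the groups. For trophoblast the sum was 18.5 to 22.1 in untreated cells, 36.1 to 42.9 at 4OHT 8h, 50.5 to 64.2 at 4OHT 10h and 52.1 to 53.2 in the PD0325901 group. The largest term in each group was Krt18, at 8.76 in untreated cells, 28.2 after 8 h of 4OHT, 43.2 after 10 h and 28.9 in the PD0325901 group, and its genes did not share 1 pattern. Cdx2 stood at 0.0633 in untreated cells, 5.13 after 8 h, 5.94 after 10 h and 2.22 with PD0325901. Tfap2c was at 5.36, 1.58, 2.62 and 7.78 in the same order and Ascl2 at 3.44, 1.36, 1.5 and 8.84, both lower with 4OHT alone than in untreated cells and highest with PD0325901. For neural progenitors it was 7.49 to 9.25 in untreated cells, 13 to 14 at 4OHT 8h, 13.2 to 14.1 at 4OHT 10h and 15.8 to 16.6 in the PD0325901 group. The fibroblast sum was 2.28 to 3.64 in untreated cells, 19.2 to 38.7 at 4OHT 8h, 21 to 42.7 at 4OHT 10h and 15 to 26.6 in the PD0325901 group. Most of that sum was Thy1, at 2.36 in untreated cells, 27.1 after 8 h of 4OHT, 29.7 after 10 h and 19.1 in the PD0325901 group, while Col1a1 and Col1a2 stayed at or under 0.201 in all groups. Primitive endoderm markers differed both between replicates and between groups. Of 17, 15 were higher in replicate 1 of all 4 groups, with a median difference of 1.45 on the log2 scale. Their sum in replicates 1 and 2 was 379 and 317 in untreated cells, 438 and 364 at 4OHT 8h, 445 and 385 at 4OHT 10h, and 480 and 362 in the PD0325901 group. This sum was lowest in untreated cells in both replicates, but its genes did not share 1 pattern. The largest term was Sparc, at 226 in untreated cells, 277 after 8 h of 4OHT, 294 after 10 h and 280 with PD0325901. Lamc1 was at 42.6, 37.8, 34.3 and 36.6 in the same order, and Gata4 and Col4a1 were also highest in untreated cells. The part of these markers in the changes of the FGF genes was not tested.

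**Figure D1:**
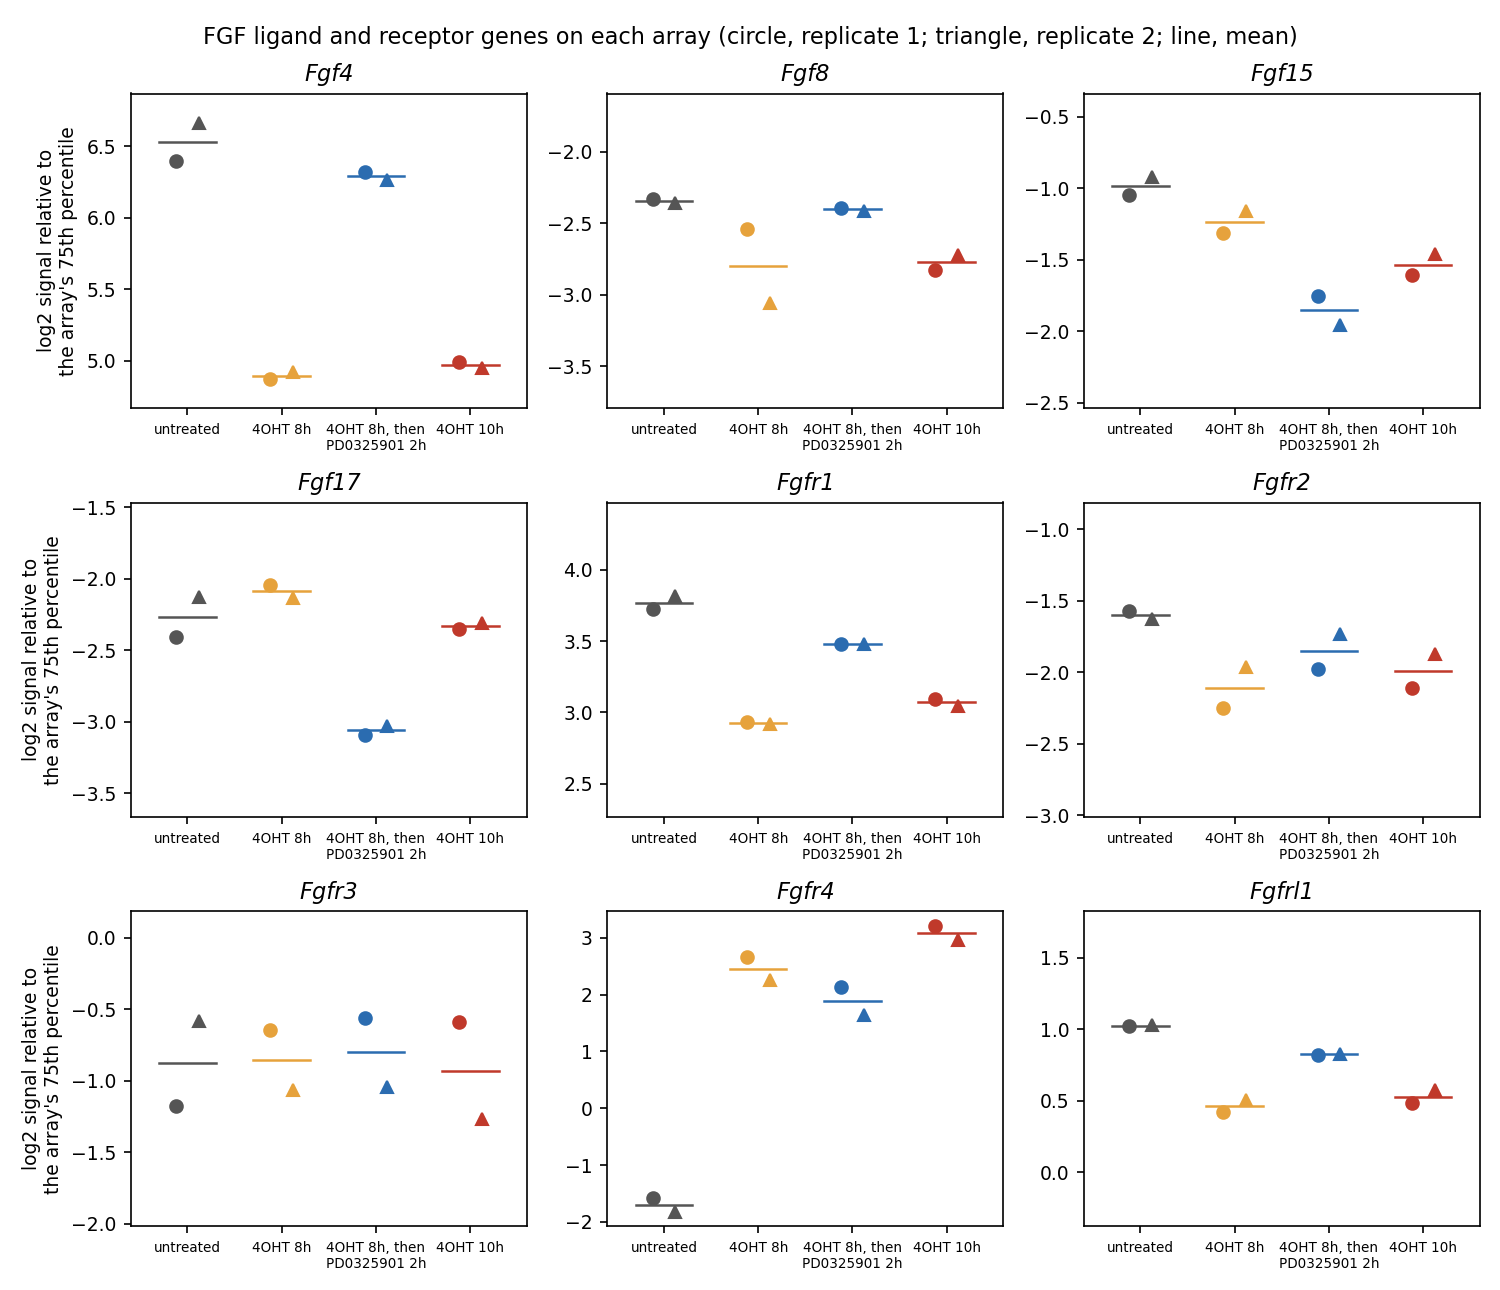
Log2 signal relative to the array's 75th percentile (vertical axes, each panel with its own range) of the 9 FGF genes in each group; circles are replicate 1, triangles replicate 2 and lines group means. Fgf4 is low in both 4OHT groups and near its untreated level with PD0325901, while Fgfr4 is near -1.70 in untreated cells and between 1.64 and 3.21 on the other 6 arrays.

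The counts over the 9 genes stood against a wide response of the array. At 4OHT 8h against untreated cells 1 of the 9 genes rose and 3 fell, where 10.3% of all features were called higher and 11.5% lower. At 4OHT 10h against untreated cells 1 rose and 4 fell, where 13.1% were called higher and 14.8% lower. In the PD0325901 group against 4OHT 10h 2 rose and 2 fell, where 3.24% were called higher and 2.87% lower. The groups did not overlap for 7 of the 9 genes in each of these comparisons, which with 2 arrays per group was also so for 63.7% of all features at 4OHT 8h, 68.7% at 4OHT 10h and 52.2% in the PD0325901 group against 4OHT 10h. The median change of the 9 was -0.45 at 4OHT 8h, -0.43 at 4OHT 10h and 0.14 in the PD0325901 group against 4OHT 10h, beside -0.04, -0.05 and -0.04 over all features. The 9 genes were chosen by name with earlier results of these data known, so these counts describe them and test nothing about the family.

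Fgf4, the ligand that embryonic stem cells secrete and whose gene is a known target of OCT4 and SOX2, stood at 6.40 and 6.67 in untreated cells, 4.87 and 4.92 at 4OHT 8h, and 4.99 and 4.95 at 4OHT 10h. All 4 arrays with 4OHT alone lay below both untreated arrays. The change was -1.64 ± 0.10 at 4OHT 8h (adjusted p = 0.000645) and -1.56 ± 0.10 at 4OHT 10h (adjusted p = 0.000549), a fall of 3.11-fold and 2.95-fold. In the PD0325901 group Fgf4 stood at 6.32 and 6.26, against 4.99 and 4.95 at 4OHT 10h. It had risen 2.50-fold within the 2 h of MEK inhibition relative to cells left in 4OHT (1.32 ± 0.10, adjusted p = 0.00341). Both PD0325901 arrays were just under both untreated arrays, and that difference was not called (-0.24 ± 0.10, adjusted p = 0.169, 95% interval -0.50 to 0.01). The falls and the rise were called under all 18 alternative settings tried.

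Fgf8, a ligand of gastrulation and of brain and limb patterning, was dim. Its brightest probe stood at -2.33 and -2.36 in untreated cells, -2.54 and -3.05 at 4OHT 8h, -2.82 and -2.72 at 4OHT 10h, and -2.39 and -2.41 in the PD0325901 group. The arrays with 4OHT alone all lay below the untreated arrays, but the difference was not called at 8 h (-0.45 ± 0.17, adjusted p = 0.116) or at 10 h (-0.43 ± 0.17, adjusted p = 0.113). Without replicate 1 of 4OHT 8h the 8 h change was -0.71 and was called (adjusted p = 0.0198), without replicate 2 of 4OHT 8h it was -0.19, and without either of these arrays the 10 h change was called (adjusted p = 0.0245). With PD0325901 against 4OHT 10h the difference was 0.37 ± 0.17 (adjusted p = 0.284). A second probe of Fgf8 was above background on 5 arrays and differed by 0.08 at 4OHT 8h, -0.17 at 4OHT 10h and -0.21 in the PD0325901 group against 4OHT 10h, so the direction at 8 h and with PD0325901 depends on the probe. With the mean of both probes the 8 h change was -0.19 and that with PD0325901 was 0.08. One more probe was not well above background on any array. With normexp background correction the changes of the brightest probe were -0.21 at 8 h and -0.17 at 10 h.

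Fgf15, the mouse counterpart of human FGF19 and an endocrine regulator of bile acid synthesis, was called lower at 4OHT 10h and not at 4OHT 8h. It stood at -1.04 and -0.92 in untreated cells, -1.31 and -1.15 at 4OHT 8h, and -1.61 and -1.46 at 4OHT 10h. Each later group lay below the one before it with no overlap. The change was -0.25 ± 0.11 at 8 h (adjusted p = 0.175, not called) and -0.55 ± 0.11 at 10 h (adjusted p = 0.0180), while the difference between 10 h and 8 h was not called either (-0.30 ± 0.11, adjusted p = 0.742). In the PD0325901 group Fgf15 stood at -1.75 and -1.95, against -1.61 and -1.46 at 4OHT 10h, a difference of -0.32 ± 0.11 that was not called (adjusted p = 0.189). It was 1.83-fold lower in the PD0325901 group than in untreated cells (-0.87 ± 0.11, adjusted p = 0.00849). The fall at 10 h was lost without untreated replicate 1 (adjusted p = 0.0516) or 2 (0.0818), without 4OHT 10h replicate 1 (0.0868) or 2 (0.0538), and with no filter on dim probes (0.0674). It was -0.26 with normexp and -0.36 with arrays centred on their median, and -0.42 with normexp for the PD0325901 group against untreated cells, all still called.

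Fgf17, a ligand of the same subfamily as Fgf8, was called lower with the MEK inhibitor and was not called with 4OHT alone. It stood at -2.41 and -2.13 in untreated cells, -2.04 and -2.13 at 4OHT 8h, and -2.35 and -2.30 at 4OHT 10h, where the 4OHT arrays overlapped the untreated ones. The changes were 0.18 ± 0.11 at 8 h (adjusted p = 0.291, 95% interval -0.09 to 0.45) and -0.06 ± 0.11 at 10 h (adjusted p = 0.714, 95% interval -0.33 to 0.21). In the PD0325901 group it stood at -3.09 and -3.03, below all 6 other arrays. It fell there by 0.73 ± 0.11 on the log2 scale against 4OHT 10h (adjusted p = 0.0208), by 0.97 ± 0.11 against 4OHT 8h (adjusted p = 0.00924) and by 0.79 ± 0.11 against untreated cells (adjusted p = 0.00979). The fall against 4OHT 10h was lost without 4OHT 10h replicate 1 (adjusted p = 0.0887) or 2 (0.119), without PD0325901 replicate 1 (0.105) or 2 (0.0877), with no filter (0.0934) and with only the compared groups fitted (0.0623). With normexp it was -0.23 against 4OHT 10h (adjusted p = 0.235), -0.38 against 4OHT 8h (0.0602) and -0.20 against untreated cells (0.197), none called. The size of this change of a dim probe therefore depends on the background correction.

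Fgfr1, the FGF receptor that carries most of the FGF4 signal in mouse embryonic stem cells, fell with 4OHT. It stood at 3.72 and 3.82 in untreated cells, 2.93 and 2.92 at 4OHT 8h, and 3.10 and 3.04 at 4OHT 10h. No array with 4OHT alone reached an untreated one. The change was -0.84 ± 0.07 at 8 h (1.79-fold, adjusted p = 0.00131) and -0.70 ± 0.07 at 10 h (1.62-fold, adjusted p = 0.00192), called under all 18 alternatives. With PD0325901 the level was 3.48 on both arrays, against 3.10 and 3.04 at 4OHT 10h, and the rise of 0.41 ± 0.07 was called (adjusted p = 0.0312). It lay between the 4OHT and the untreated arrays, 0.29 ± 0.07 below untreated cells (adjusted p = 0.0445). The rise was lost without either array of 4OHT 8h (adjusted p = 0.0787), without 4OHT 10h replicate 1 (0.114) or 2 (0.174), and without PD0325901 replicate 1 (0.123) or 2 (0.12). It was also lost with arrays centred on their median (0.119), with no filter (0.162), with only the compared groups fitted (0.131) and with the mean of the probes (0.0672). The remaining difference from untreated cells was called in 4 of 18 alternatives and in none that left out an array (adjusted p 0.0783 to 0.146).

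3 probes of Fgfr1 passed the filter and did not move alike. A second probe stood at 1.04 and 0.90 in untreated cells, 0.08 and 0.13 at 4OHT 8h, 0.29 and 0.29 at 4OHT 10h, and 0.90 and 0.74 in the PD0325901 group. Its changes of -0.86 ± 0.09 at 8 h, -0.67 ± 0.09 at 10 h and 0.53 ± 0.09 with PD0325901 against 4OHT 10h were called over all kept probes (adjusted p = 0.00301, 0.00508 and 0.0338). The remaining probe stood between 0.15 and 0.49 on all 8 arrays, with changes of 0.04 ± 0.13, -0.02 ± 0.13 and 0.12 ± 0.13 (adjusted p = 0.864, 0.915 and 0.663). With the mean of the 3 probes the fall of Fgfr1 was -0.55 at 8 h and -0.47 at 10 h, both called. Tested probe by probe, 20.2% of kept probes were called at 4OHT 8h, 26.3% at 4OHT 10h and 5.28% in the PD0325901 group against 4OHT 10h. Which transcripts each probe matches was not examined here.

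Fgfr2, the receptor used by trophoblast and, with Fgfr1, by primitive endoderm of the mouse blastocyst, was dim and lowest with 4OHT alone. It stood at -1.57 and -1.63 in untreated cells, -2.25 and -1.96 at 4OHT 8h, -2.11 and -1.87 at 4OHT 10h, and -1.97 and -1.73 in the PD0325901 group. All 6 treated arrays lay below both untreated arrays. The difference was -0.51 ± 0.15 at 8 h (adjusted p = 0.0603) and -0.39 ± 0.15 at 10 h (adjusted p = 0.101), neither called. With the replicate number as a block both were called (adjusted p = 0.0220 and 0.0396), in a fit that called 31.9% of all features at 8 h and 39% at 10 h. With normexp the 8 h change was -0.32 and was called (adjusted p = 0.0440), while that at 10 h was -0.22, and with median centring it was -0.20. The difference with PD0325901 against 4OHT 10h was 0.14 ± 0.15 (adjusted p = 0.647). A second probe of Fgfr2, spotted 10 times, did not pass the filter. It was well above background on 5 of 8 usable spots of untreated replicate 1 and 3 of 10 of PD0325901 replicate 1, and on 0 spots of the other 6 arrays.

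On its brightest probe Fgfr3, a receptor best known for restraining bone growth, varied more between replicates than between groups. It stood at -1.17 and -0.58 in untreated cells, -0.64 and -1.07 at 4OHT 8h, -0.59 and -1.27 at 4OHT 10h, and -0.56 and -1.04 in the PD0325901 group. All groups overlapped on this probe. The changes were 0.02 ± 0.33 at 8 h (adjusted p = 0.971), -0.05 ± 0.33 at 10 h (0.920) and 0.13 ± 0.33 with PD0325901 against 4OHT 10h (0.866). The 95% interval at 8 h ran from -0.80 to 0.85. A second probe stood at -3.39 and -3.44 in untreated cells and at -3.17 and -2.99 at 4OHT 8h, without overlap. It differed by 0.34 ± 0.13 at 8 h (adjusted p = 0.127), 0.08 at 10 h and 0.00 with PD0325901.

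Fgfr4, the receptor that pairs with the coreceptor Klb for Fgf15 in mouse liver, showed the largest change of the 9 genes. It stood at -1.57 and -1.82 in untreated cells, 2.66 and 2.26 at 4OHT 8h, and 3.21 and 2.97 at 4OHT 10h. All 4 arrays with 4OHT alone lay far above both untreated arrays. The rise was 4.16 ± 0.22 at 8 h (17.8-fold, adjusted p = 0.000405) and 4.79 ± 0.22 at 10 h (27.6-fold, adjusted p = 0.000225), called under all 18 alternatives with values from 3.19 to 4.35 and from 3.77 to 4.98. The order of the group means was untreated, PD0325901, 4OHT 8h and 4OHT 10h. The neighbours 4OHT 10h and 4OHT 8h were not called different (0.63 ± 0.22, adjusted p = 0.742), although their arrays did not overlap.

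With PD0325901 Fgfr4 stood at 2.13 and 1.64, against 3.21 and 2.97 at 4OHT 10h. It fell by 1.2 ± 0.22 on the log2 scale (2.30-fold, adjusted p = 0.0385, and 0.00405 with the replicate block, which called 12.4% of all features). Against 4OHT 8h the difference was -0.57 ± 0.22 (adjusted p = 0.211, and 0.0197 with the block, which called 14% of all features). The PD0325901 arrays still lay far above the untreated ones, by 3.58 ± 0.22 (12-fold, adjusted p = 0.00116). The fall against 4OHT 10h was lost when any 1 of the 8 arrays was left out. Its adjusted p was 0.0706 without either untreated array, 0.0548 without either 4OHT 8h array, 0.152 and 0.124 without 4OHT 10h replicate 1 and 2, and 0.0676 and 0.134 without PD0325901 replicate 1 and 2. It was also lost with quantile normalization (0.0542), with no filter (0.134) and with only the compared groups fitted (0.112). Replicate 1 was the higher array in all 4 groups, as it was for 15 of 17 primitive endoderm markers. The summed trophoblast, fibroblast and neural markers were also higher in the 3 groups with 4OHT than in untreated cells, with trophoblast genes going both ways, and the part of these cell types in the levels of Fgfr4 was not tested. A second probe of Fgfr4 moved the same way by less, with changes of 2.23 ± 0.15 at 8 h, 2.74 ± 0.15 at 10 h and -0.81 ± 0.15 with PD0325901 against 4OHT 10h (adjusted p = 0.00092, 0.000391 and 0.0439 over all kept probes).

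Fgfrl1, an FGF receptor that lacks the tyrosine kinase domain, fell with 4OHT. It stood at 1.02 and 1.03 in untreated cells, 0.42 and 0.51 at 4OHT 8h, and 0.48 and 0.57 at 4OHT 10h, with no overlap between 4OHT and untreated arrays. The change was -0.56 ± 0.07 at 8 h (1.48-fold, adjusted p = 0.00498) and -0.50 ± 0.07 at 10 h (1.41-fold, adjusted p = 0.00590), called under all 18 alternatives and -0.31 at 10 h with median centring. In the PD0325901 group it stood at 0.82 and 0.83, between the 4OHT and the untreated arrays. Against 4OHT 10h the difference was 0.30 ± 0.07 and not called (adjusted p = 0.0805, and 0.0423 with the replicate block).

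**Figure D2:**
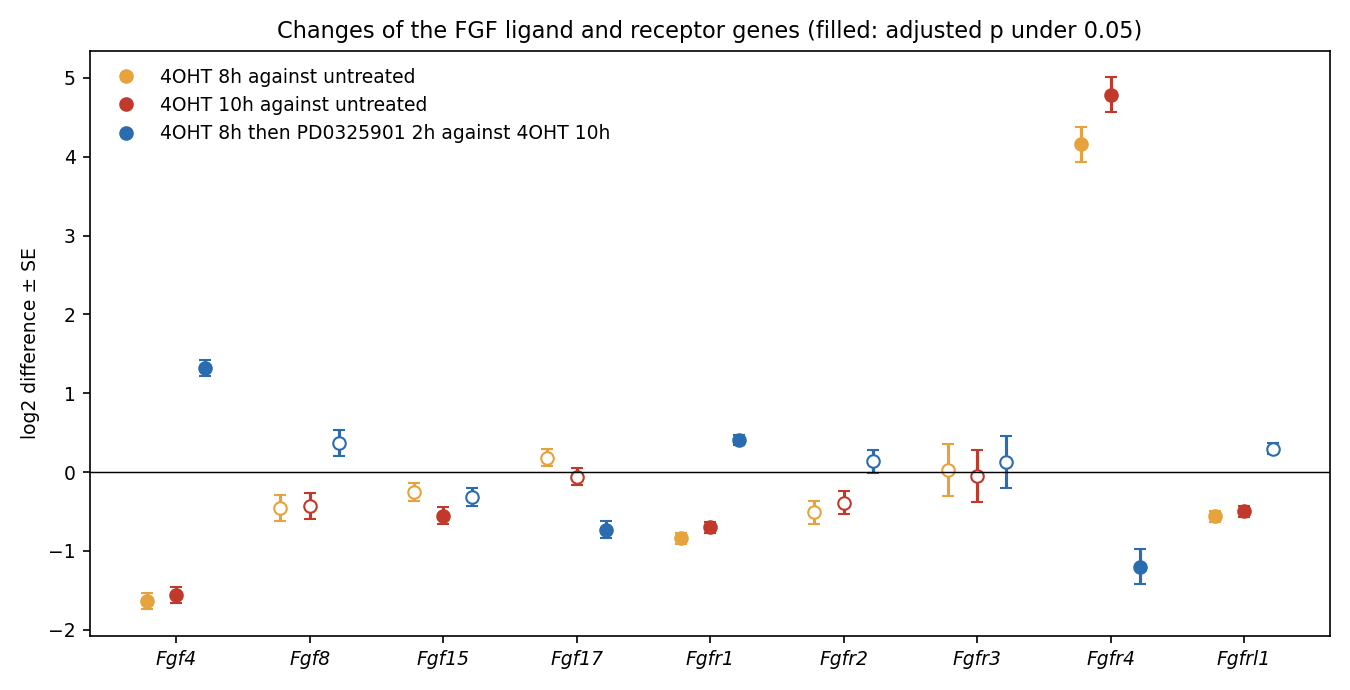
Log2 difference ± standard error of the limma fit (vertical axis) of the 9 FGF genes in 3 comparisons; filled points have an adjusted p under 0.05. Fgfr4 stands apart at 4.16 and 4.79 in the 4OHT groups against untreated cells, and Fgf4 moves by -1.64 and -1.56 there and by 1.32 with PD0325901 against 4OHT 10h.

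**Figure D3:**
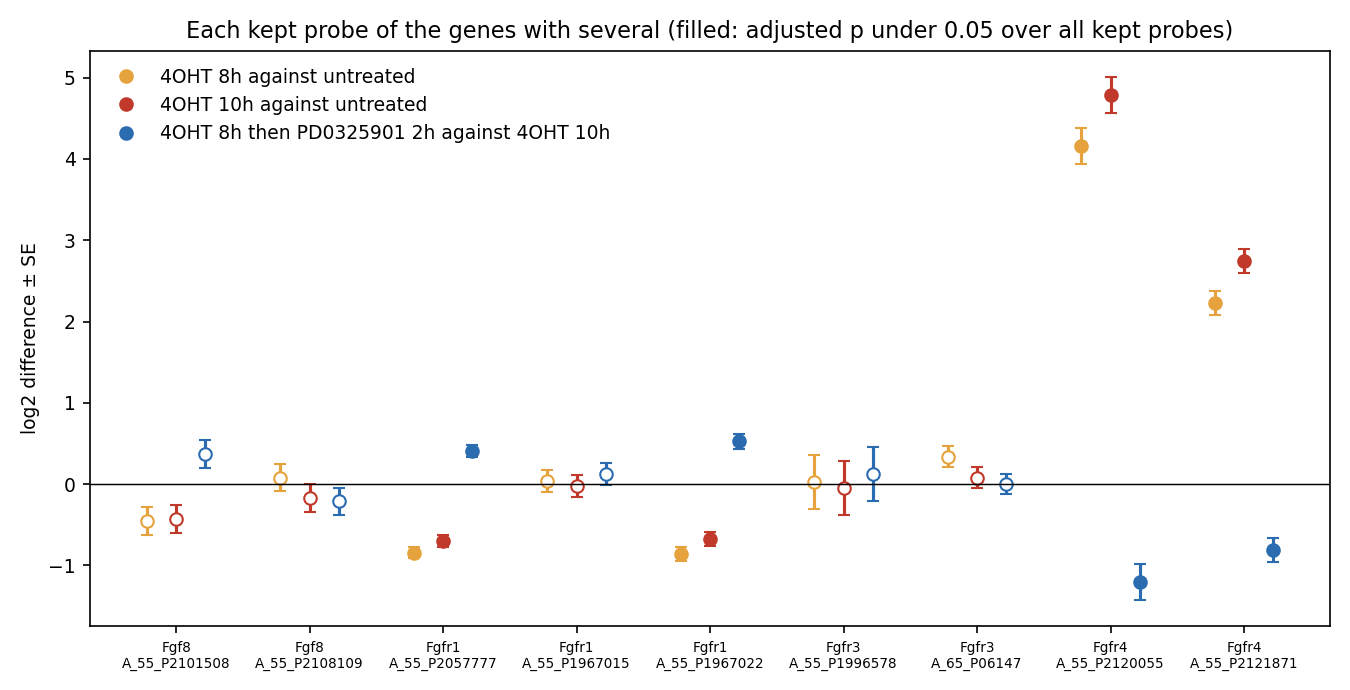
Log2 difference ± standard error (vertical axis) of each kept probe of the 4 genes with several kept probes; filled points have an adjusted p under 0.05 over all kept probes. Both probes of Fgfr4 and 2 of the 3 probes of Fgfr1 move alike, while 1 probe of Fgfr1 stays near 0.

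Set against the cells from which the inhibitor treatment began (4OHT 8h), the PD0325901 group had 3 genes higher and 2 lower, where 3.4% of all features were called higher and 3.11% lower. Those higher were Fgf4 (1.39 ± 0.10, adjusted p = 0.00314), Fgfr1 (0.55 ± 0.07, adjusted p = 0.0128) and Fgfrl1 (0.36 ± 0.07, adjusted p = 0.0442), and those lower were Fgf17, given above, and Fgf15 (-0.62 ± 0.11, adjusted p = 0.0353). Fgf4 was called under all 18 alternatives here. Fgfrl1 and Fgf15 were lost when any 1 array was left out, with adjusted p from 0.0774 to 0.204 for Fgfrl1 and from 0.0634 to 0.17 for Fgf15. Fgfr1 was lost without 4OHT 8h replicate 1 (adjusted p = 0.0750) or 2 (0.0860) and without PD0325901 replicate 1 (0.0672) or 2 (0.0683), and Fgf17 without the same arrays (0.0568, 0.0526, 0.0606 and 0.0528). Fgf15 and Fgfrl1 were also lost with normexp (0.0769 and 0.127), with no filter (0.137 and 0.201) and with only the compared groups fitted (0.123 and 0.153), and Fgfr1 under the last 2 of these (0.0794 and 0.0769). Fgfrl1 was lost with median centring as well (0.0758).

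Set against untreated cells, the PD0325901 group had 1 gene higher (Fgfr4) and 3 lower (Fgf15, Fgf17 and Fgfr1), where 7.06% of all features were called higher and 8.8% lower. The fall of Fgf15 and the rise of Fgfr4 were called under all 18 alternatives. That of Fgf17 was lost without PD0325901 replicate 1 (adjusted p = 0.0506) or 2 (0.0509) and with only the compared groups fitted (0.0557). Fgfrl1 was not called (-0.20 ± 0.07, adjusted p = 0.115) and neither was Fgf8 (-0.06 ± 0.17, adjusted p = 0.842). The median change of the 9 genes was -0.24, beside -0.07 over all features, and the groups did not overlap for 8 of them and for 60.3% of all features. The comparisons with 4OHT 10h, 4OHT 8h and untreated cells share the PD0325901 arrays.

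Between 4OHT 10h and 4OHT 8h limma called 0 of the 9 genes and 0% of all features in either direction. At an unadjusted p under 0.05 there were 1499 features, among them 2 of the 9 genes, Fgf15 (-0.30 ± 0.11) and Fgfr4 (0.63 ± 0.22).

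The genes whose levels over the 8 arrays were most like those of Fgf4, among 1706 named genes above background on all arrays with group means spanning at least 1, were Tubb3 (Pearson's r = 0.996), Gpr19 (0.995) and Rnf207 (0.995). Tubb3, a tubulin of neurons, averaged 3.73 in untreated cells, 2.18 after 8 h of 4OHT, 2.25 after 10 h and 3.43 in the PD0325901 group. For Fgfr4 they were Gngt2 (r = 0.999), Hmces (0.997) and Hopx (0.997). Hopx, a homeodomain protein that does not bind DNA, averaged -0.89 in untreated cells, 3.46 after 8 h of 4OHT, 3.73 after 10 h and 2.61 in the PD0325901 group. These correlations are descriptions over 8 arrays that fall into 4 groups, and the arrays share their scaling.

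The counts of called genes in the pathway lists stand beside those over all features, 10.3% higher and 11.5% lower at 4OHT 8h, 13.1% and 14.8% at 4OHT 10h, and 3.24% and 2.87% in the PD0325901 group against 4OHT 10h. Of 18 other FGF ligand genes 10 passed the filter, and Fgf2 was among those that did not. Fgf18, a ligand of bone and lung development, was the gene called at both times. It stood at 0.70 and 0.38 in untreated cells, 0.04 and -0.11 at 4OHT 8h, -0.05 and 0.06 at 4OHT 10h, and 0.77 and 0.60 in the PD0325901 group. The gene fell by 0.57 ± 0.13 (log2) at 8 h (adjusted p = 0.0325) and by 0.53 ± 0.13 at 10 h (0.0340), and rose by 0.68 ± 0.13 with PD0325901 against 4OHT 10h (0.0456). The other 9 were not called. The list's median change was -0.15 at 8 h, -0.37 at 10 h and 0.05 with PD0325901, beside -0.04, -0.05 and -0.04 over all features. The fit with the replicate block called 31.9% of all features at 8 h, 39% at 10 h and 12.4% with PD0325901, in either direction. Of the 10 ligand genes it called 2 higher and 3 lower at 8 h, 3 and 3 at 10 h, and 2 and 1 with PD0325901. Fgf5, a marker of the primed epiblast, was such a gene. It stood at -5.22 and -4.04 in untreated cells, -3.83 and -3.36 at 4OHT 8h, and -3.99 and -3.41 at 4OHT 10h, with changes of 1.04 ± 0.49 (adjusted p = 0.191, and 0.0151 with the block) and 0.93 ± 0.49 (0.205, and 0.0176). With PD0325901 it differed by 0.02 ± 0.49 from 4OHT 10h (adjusted p = 0.989). Its untreated levels lay near the lowest signals well above background of those arrays, -5.36 and -4.27. With 4OHT the others called only with the block were Fgf9, Fgf10 and Fgf14 at both times and Fgf1 at 10 h. Fgf9 rose by 1.82 ± 0.79 at 8 h and 1.84 ± 0.79 at 10 h, and fell by 3.05 ± 0.79 with PD0325901. It was above background on 0 untreated and 0 PD0325901 arrays. Fgf10 fell by 1.24 ± 0.52 and 1.42 ± 0.52, and rose by 0.86 ± 0.52 with PD0325901.

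Among 28 tested genes of coreceptors, heparan sulphate and extracellular modulators, 4 rose and 8 fell at 4OHT 8h, and 6 rose and 9 fell at 4OHT 10h. Hs6st1, which adds the 6-O-sulphates of heparan sulphate that FGF signalling uses, stood at 1.5 and 1.45 in untreated cells, -0.50 and -0.37 at 4OHT 8h, -0.56 and -0.31 at 4OHT 10h, and 1.30 and 1.32 in the PD0325901 group. It fell by 1.91 ± 0.10 at both times (adjusted p = 0.000414 and 0.000326) and rose by 1.74 ± 0.10 with PD0325901 against 4OHT 10h (0.00166). Sdc4, a heparan sulphate proteoglycan, rose by 1.54 ± 0.13 at 8 h and 1.41 ± 0.13 at 10 h, and Ext1, which builds heparan sulphate chains, by 0.89 ± 0.07 and 1.05 ± 0.07. Ncam1, a cell adhesion protein that binds FGF receptors, fell by 1.31 ± 0.15 and 1.34 ± 0.15. With PD0325901 against 4OHT 10h 2 of the 28 rose, Hs6st1 and the glypican Gpc1 (0.47 ± 0.09), and 1 fell, Ext1 (-0.38 ± 0.07). The replicate block called 5 of the 28 higher and 2 lower there, and 12.4% of all features in either direction. The list's median change was -0.17 at 8 h, -0.24 at 10 h and -0.01 with PD0325901, beside -0.04, -0.05 and -0.04 over all features.

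Of 22 tested adaptors and kinases between receptor and ERK, 4 rose and 1 fell at 4OHT 8h, and 6 rose and 0 fell at 4OHT 10h. With PD0325901 against 4OHT 10h 0 were called. With the replicate block 0 rose and 3 fell there, where that fit called 12.4% of all features. Shc1, an adaptor that recruits GRB2, rose by 1.07 ± 0.13 at 8 h and 1.14 ± 0.13 at 10 h. Braf rose by 1.09 ± 0.18 at 8 h and Grb2 by 0.72 ± 0.10 at 10 h. Frs3, a relative of the receptor substrate FRS2, fell by 1.51 ± 0.37 at 8 h (adjusted p = 0.0391) and was above background on 1 of 2 arrays there. The list's median change was 0.01 at 8 h, 0.22 at 10 h and -0.13 with PD0325901, beside -0.04, -0.05 and -0.04 over all features.

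The negative regulators and ETV targets of FGF signalling are the genes through which ERK activity is usually read. Of 13 tested, 12 rose and 0 fell at 4OHT 8h, 11 rose and 0 fell at 4OHT 10h, and 0 rose and 9 fell with PD0325901 against 4OHT 10h. Their median change was 1.79 at 8 h, 1.91 at 10 h and -1.76 with PD0325901, beside -0.04, -0.05 and -0.04 over all features. Dusp6, the ERK phosphatase, stood at 0.43 and 0.65 in the PD0325901 group, against 6.38 and 6.42 at 4OHT 10h. It had risen by 2.84 ± 0.09 at 8 h and by 2.95 ± 0.09 at 10 h, and fell by 5.85 ± 0.09 with PD0325901, below its untreated arrays at 3.43 and 3.46. Spry4, a Sprouty inhibitor of receptor signalling, stood at -4.85 and -5.22 with PD0325901, where 1 of 2 arrays was well above background, against 2.65 and 2.53 at 4OHT 10h. Spred1 rose by 1.92 ± 0.07 at 8 h and Dusp5 by 4.39 ± 0.13 at 10 h, and in untreated cells Dusp5 was above background on 1 of 2 arrays. Against untreated cells the PD0325901 group had 5 of the 13 called higher, Dusp4, Dusp5, Etv4, Spred1 and Spred3. The 5 called lower were Dusp6, Il17rd, Spred2, Spry2 and Spry4, where 7.06% of all features were called higher and 8.8% lower. These genes were in view from earlier results when the list was written.

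**Figure D4:**
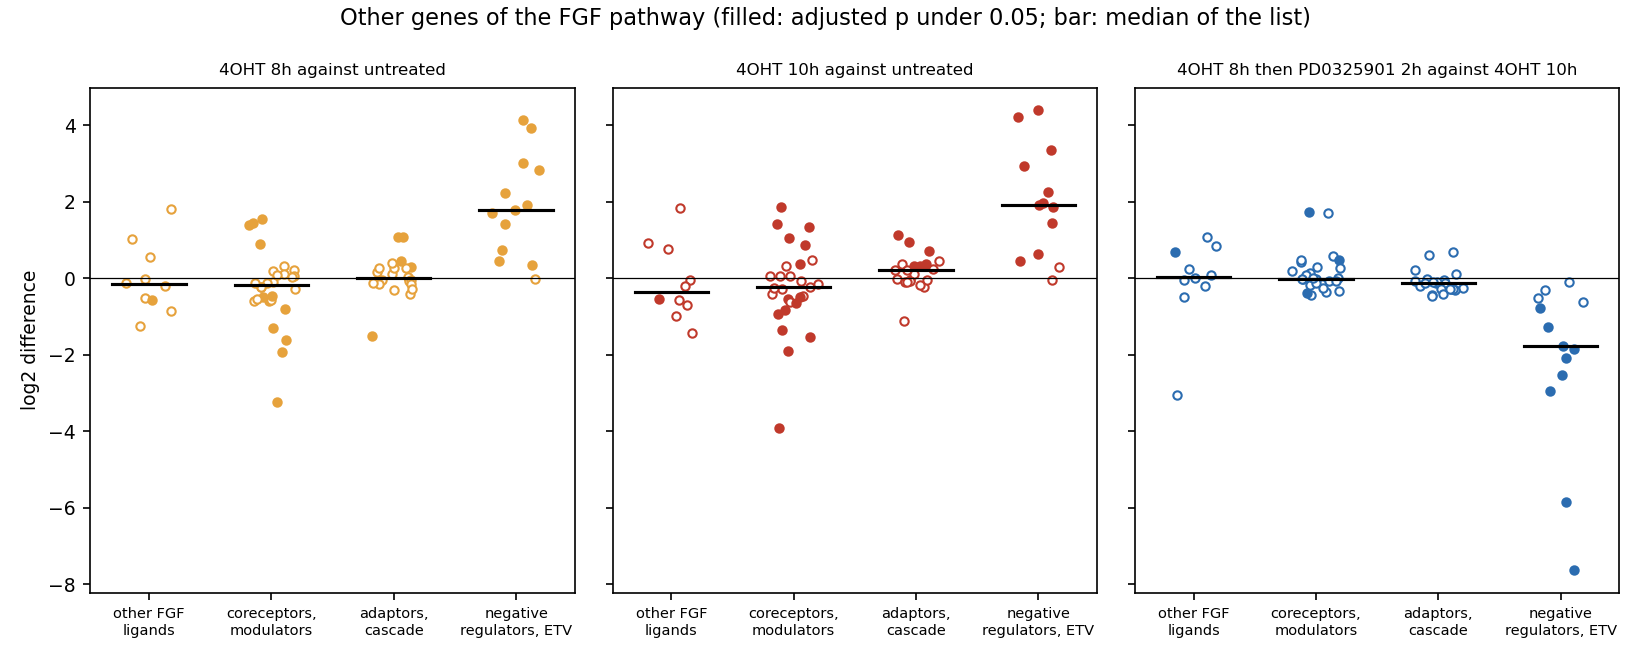
Log2 difference (vertical axis) of the tested genes of 4 lists of the FGF pathway in 3 comparisons; each point is a gene, filled where its adjusted p is under 0.05, and bars are list medians. The negative regulators and ETV targets have medians of 1.79 and 1.91 with 4OHT against untreated cells and -1.76 with PD0325901 against 4OHT 10h, while the other lists have medians between -0.37 and 0.22.

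Values of known regulators of Fgf4 and of early lineage genes are given beside those of the ligand. Pou5f1, which encodes OCT4, was not called in any comparison, with changes of 0.20 ± 0.10 at 8 h, 0.22 ± 0.10 at 10 h and -0.22 ± 0.10 with PD0325901 against 4OHT 10h (adjusted p = 0.221, 0.170 and 0.286). Sox2 was not called with 4OHT (0.28 ± 0.08 at 8 h and 0.24 ± 0.08 at 10 h, adjusted p = 0.0700 and 0.0875). It stood at 3.45 and 3.40 in the PD0325901 group, against 4.29 and 4.23 at 4OHT 10h, a fall of 1.78-fold (adjusted p = 0.00699). Nanog, a factor of naive pluripotency, stood at 4.78 and 4.83 in untreated cells, 2.31 and 2.12 at 4OHT 8h, and 1.93 and 1.48 at 4OHT 10h. It fell by 2.59 ± 0.19 at 8 h and 3.10 ± 0.19 at 10 h, and with PD0325901 it rose by 1.66 ± 0.19 against 4OHT 10h (adjusted p = 0.00997) and remained 1.44 ± 0.19 below untreated cells (adjusted p = 0.00873). Gata6 and Pdgfra, genes of primitive endoderm, were not called in any of these comparisons, with changes of 0.54 ± 1.15 and -0.23 ± 1.32 at 8 h. Gata6 was called with the replicate block at 8 h, 10 h and with PD0325901 against 4OHT 10h (adjusted p = 0.00433, 0.0019 and 0.00303).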

How the data were processed

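RNA of 8 samples was measured on the 8 arrays of 1 slide. Per the file headers, the deposited scanner files hold 1 channel of spot intensity from Agilent Feature Extraction 11.0.1.1, already background-corrected in the processed signal. That channel is named green, while the labels name the dye Cy5. The deposited value table lay within 0.497% of the processed intensity; its median intensity over non-control probes was 29.9 and 27.9 for untreated, 23.5 and 26.5 for 4OHT 8h, 21.6 and 23.7 for 4OHT 10h, and 22.4 and 23.9 for the PD0325901 arrays (replicates 1 and 2), so it was neither centred nor on a log scale.

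From the deposited intensity, log2 values minus each array's 75th percentile were computed. Spots marked as outliers (169 to 249 per array) were left out, 0 spots were saturated, and spots of a probe were averaged. Probes had to exceed background on each array of 1 or more groups (30328 of 55681 passed), and a gene took its kept probe with the highest mean. RefSeq accessions gave 27656 probes 1 symbol, 0 several and 28025 none. The other columns used are the deposited marks for background, saturation, outliers and controls.

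limma 3.58.1 (R 4.3.3) fitted a mean per group over all 8 arrays, with eBayes (4 residual and 1.713 prior degrees of freedom), two-sided tests and Benjamini-Hochberg adjustment over 22686 features. The fit was tested on simulated data. Same-numbered samples of different groups deviated together (r from 0.287 to 0.356 in 6 of 6 group pairs), so replicate numbers, which are also slide rows, were taken as pairing the samples. The reported fit has no term for this pairing. Only the alternative fit with the replicate block includes it, and its calls are given where stated. Alternatives were normexp on median signal and median background (offset 50), quantile normalization, median centring, the value table, other filters, probe rules, fits and samples. Testing each probe on its own was chosen after seeing the data. The number of arrays limits the precision.

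The 9 genes and all lists were chosen with earlier results of these data known. Named genes were the 9, Fgf5, Fgf2, Dusp6, Spry4, Nanog, Pou5f1, Sox2, Gata6 and Pdgfra, up to 2 called genes each way per pathway list and comparison by smallest adjusted p, and the 3 most alike genes of each member whose group means spanned at least 1. Promoter sequences are RefSeq's (GRCm38.p6).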

Additional observations from a re-analysis of the deposited data

How the results depend on the processing

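No change of any of the 9 genes that was called turned its direction under the alternatives run: of 972 recomputed changes 878 kept their side of the threshold, 8 passed it newly and 86 no longer passed it. Over all features limma called 4931 at 4OHT 8h and 6330 at 4OHT 10h against untreated cells, and for the PD0325901 group 1388 against 4OHT 10h, 1478 against 4OHT 8h and 3597 against untreated cells. With the replicate block the last 3 became 2820, 3183 and 6286. The block changed the call of Fgfr2 at 8 h and 10 h, of Fgfrl1 against 4OHT 10h and of Fgfr4 against 4OHT 8h, and no other call of the 9 genes. With no filter on dim probes the 5 counts were 2303, 3306, 333, 358 and 1069, and with only the compared groups fitted 2766, 3983, 327, 325 and 1413. Leaving out 1 array gave 2268 to 4268, 3170 to 5863, 369 to 958, 389 to 1062 and 1193 to 2649, and 0 to 4 for 4OHT 10h against 4OHT 8h (0 with all arrays). Of the 9 genes, 4 were called in the PD0325901 group against 4OHT 10h, 5 against 4OHT 8h and 4 against untreated cells. These became 1, 2 and 2 with only the compared groups fitted, 1 and 2 (the first 2 comparisons) with no filter, and 2 against 4OHT 8h with normexp. They were 1 to 3, 1 to 3 and 2 to 3 without 1 array. Fits with fewer arrays or groups have fewer degrees of freedom, and the fit with no filter has more tests. Why calls were lost under these settings or with normexp was not tested. Centring on the array median moved the median of all features by 0.135 at 4OHT 8h, 0.188 at 4OHT 10h and 0.112 in the PD0325901 group against untreated cells, and by -0.0761 against 4OHT 10h. The share of called features that were higher then became 66.8% (47.2% as reported), 72.4% (47%), 67.2% (44.5%) and 41.8% (53%). Slide could not be a block, since there was 1 slide. With normexp the changes of Fgf15 at 4OHT 10h and of Fgf17 in the PD0325901 group against 4OHT 10h were -0.26 (called) and -0.23 (not called), against -0.55 and -0.73 as reported.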
